A study of Mus musculus with 26 samples.

Results

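Gene expression was compared between 2 E14.5 mouse hearts, 1 from an embryo labelled *Dnmt3a* KO and 1 from a WT embryo. Of 48234 autosomal gene symbols, the 13378 that reached 1 FPKM (fragments scaled to transcript length and to the number of mapped reads) in at least 1 of the 2 libraries were analyzed, and all of them are described genome-wide rather than as targets of any one regulator. The study obtained such embryos by crossing mice heterozygous for the *Dnmt3a* tm1Enl allele, a deletion carried in all cells from fertilization on, and the labels give both hearts as male, C57BL6 and E14.5. The strain name that the paper gives the heterozygous mice holds a second background beside C57BL6. Its share in each embryo was not measured. The WT embryo carries the number 4 and the KO embryo the number 25, and livers of the same 2 numbers were also sequenced, so heart and liver values come from the same embryos according to the labels. Some values are also set beside cultured mouse embryonic fibroblasts (MEFs) labelled WT or *Dnmt3a* KO, which are other samples. The MEFs were given the EZH2 inhibitor GSK126 or DMSO without it. Each group has 1 library. No test was therefore possible, no p-value is given, and a difference between the hearts cannot be told apart from a difference between any 2 embryos or 2 dissections.

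DNMT3A is one of the enzymes that place DNA methylation on previously unmethylated DNA in the embryo. Methylation of a promoter rich in CpG is generally linked to silencing, and genes of the germline are a well-known class that somatic cells keep silent in this way. The embryonic heart is made of cardiomyocytes, endocardium and endothelium, epicardium, valve mesenchyme and fibroblasts, and it is filled with blood.

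The targeted gene itself went against its label. *Dnmt3a* (chromosome 12, 3806007 to 3914443 in mm10) was at 55.0 FPKM in WT heart and 125 FPKM in the heart labelled *Dnmt3a* KO, a log2 ratio of FPKM + 1 of 1.17. The livers of these embryos went the opposite way, with 53.5 FPKM in the WT liver against 12.7 FPKM in the one labelled KO. In MEFs *Dnmt3a* was again higher under the KO label, at 26.1 FPKM in WT and 85.7 FPKM in KO with DMSO. With GSK126 it was at 19.3 and 84.5 FPKM. The value is that of the whole gene, which has 18 annotated transcripts of 369 to 9685 bases, and transcription of the targeted exons cannot be read from it. The sample is called the heart labelled *Dnmt3a* KO throughout, and every direction below rests on that label.

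Both libraries had the makeup of a heart. *Nkx2-5*, a transcription factor of cardiomyocytes, was at 179 FPKM in WT heart and 182 FPKM in the heart labelled *Dnmt3a* KO, against 0 and 0.117 FPKM in the livers. Of 23 marker genes of lung, foregut, thymus and other epithelia, 9 were listed at 0 in both hearts, among them *Nkx2-1*, *Sftpc* and *Foxn1*, and 14 were not. Of those 14, 3 reached 1 FPKM, all in the heart labelled *Dnmt3a* KO: *Krt14* (0.845 and 1.73 FPKM), *Cldn7* (0.555 and 1.46 FPKM) and *Grhl2* (0.297 and 1.65 FPKM). The depth, estimated from the steps of low FPKM values, was about 18809000 reads for WT heart and about 15215900 for the library labelled *Dnmt3a* KO, and a transcript of 2000 bases at 1 FPKM stood for 33.7 and 27.5 reads. *Xist* was at 0 and 0.0148 FPKM.

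Most genes had nearly the same level in both hearts. The median log2 ratio of FPKM + 1 was 0.0044 over all 13378 genes, and 12846 of them stayed within 2-fold. At least 2-fold higher in the heart labelled *Dnmt3a* KO were 287 genes (2.15%), and 245 (1.83%) were at least 2-fold lower, together 3.98%. Many of these are not ordinary messenger RNAs. Among the 11919 protein-coding genes with a transcript of at least 500 bases, 136 (1.14%) were higher and 108 (0.906%) lower, whereas among the other 1459 genes 19.7% passed 2-fold, including 29 of 44 microRNA genes, which mRNA libraries measure poorly. The genes nearest to the threshold in the protein-coding set were *Snx15*, just inside 2-fold at 26.9 FPKM in WT heart and 12.9 FPKM in the other, and *Aadac*, just past it at 1.0 and 0 FPKM. At the 1 FPKM limit, *Tmem67* was left out with 0.615 and 0.999 FPKM and *Pot1b* was kept with 0.943 and 1.0 FPKM.

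**Figure D1:**
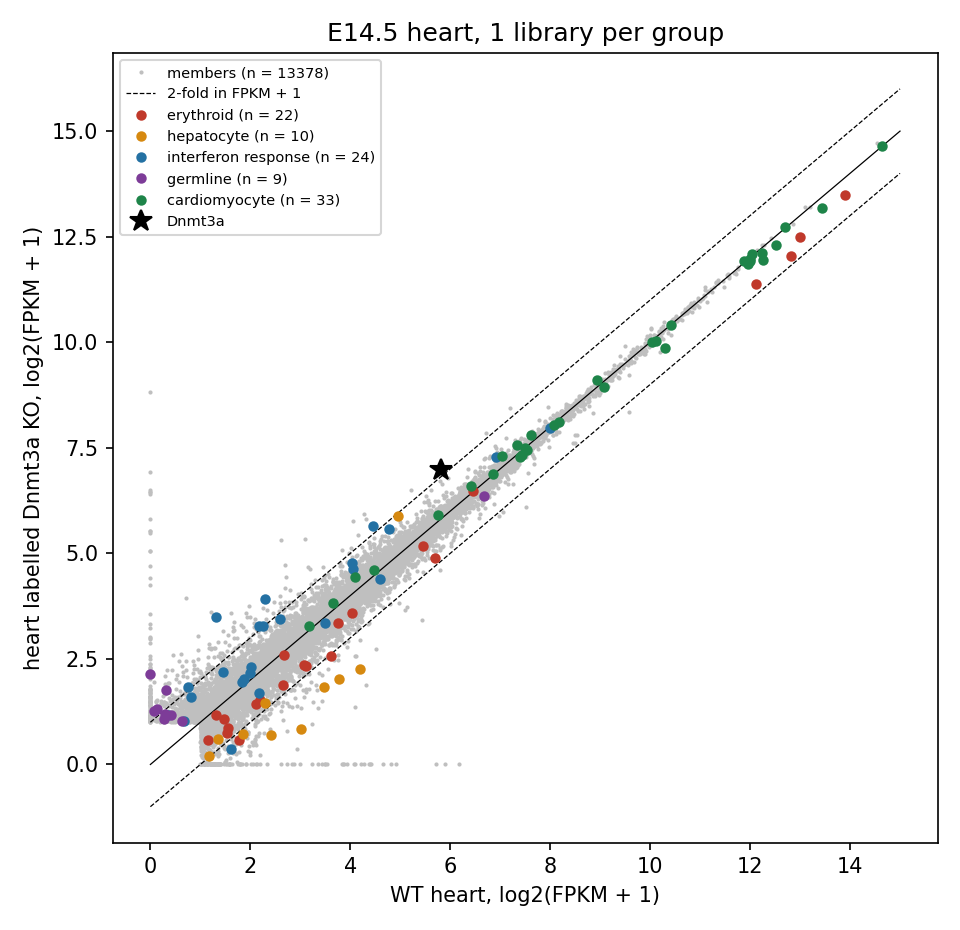
Level of each gene in WT heart (x axis) and in the heart labelled *Dnmt3a* KO (y axis), both as log2(FPKM + 1) from 1 library each. Grey points are all 13378 genes, colored points are members of 5 gene lists, the star is *Dnmt3a*, the solid line is equality and the dashed lines are 2-fold; cardiomyocyte genes lie close to the line, erythroid and hepatocyte genes mostly below it, and interferon genes mostly above it; the germline genes above it were kept by the 1 FPKM limit through the heart labelled *Dnmt3a* KO.

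The share of genes past 2-fold depended on expression level. In the protein-coding set it was 6.94% at a mean under 2 FPKM and 3.81% from 2 to 5 FPKM. It fell to 0.783% from 10 to 20 FPKM and to 0.181%, or 2 of 1108 genes, at 100 FPKM and over. Among strongly expressed genes the hearts were nearly identical, and the 2 exceptions, named after their values were seen, were *Ptpa*, which encodes an activator of protein phosphatase 2A (145 FPKM in WT heart, 349 FPKM in the other), and *Ddc*, described below (104 and 228 FPKM).

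**Figure D2:**
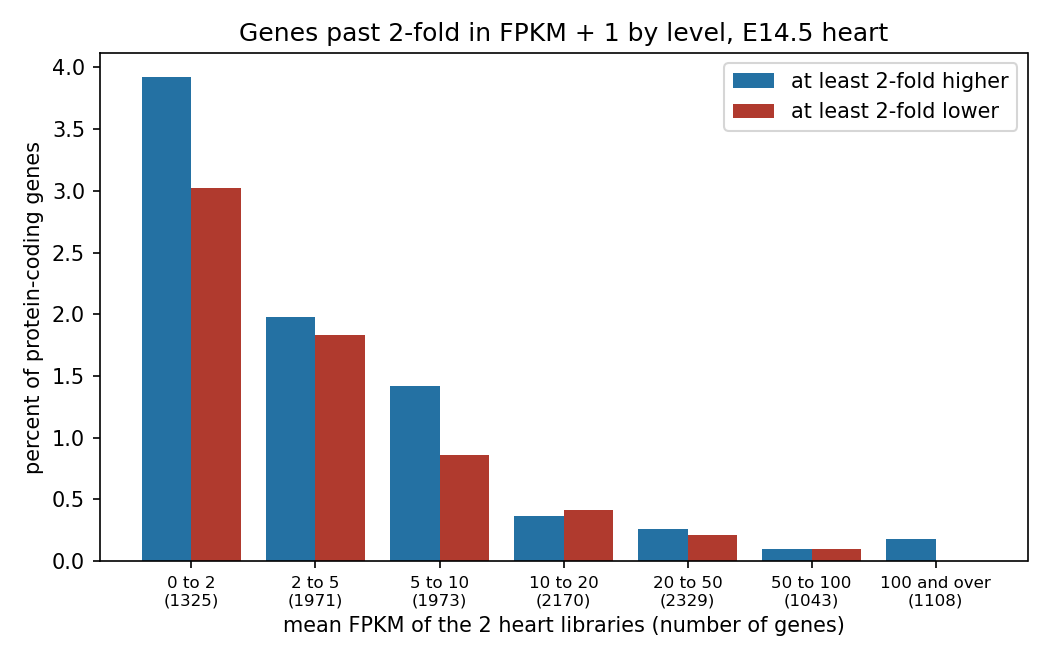
Percent of protein-coding genes at least 2-fold higher (blue) or lower (red) in the heart labelled *Dnmt3a* KO, in 7 bins of mean FPKM of the 2 hearts, with the number of genes under each bin. Both shares are smaller at higher levels, going from 3.92% higher and 3.02% lower in the lowest bin to 0.181% and 0% in the highest.

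Among the 12 protein-coding genes with the largest rise were genes of innate immunity and of the germline. *Ltf*, which encodes lactoferrin, an iron-binding protein of neutrophil granules, was at 0.631 FPKM in WT heart and 14.4 FPKM in the heart labelled *Dnmt3a* KO, a log2 ratio of 3.24. *Oasl2*, an interferon-induced gene, went from 1.47 to 10.3 FPKM. *Wdfy1*, which encodes an endosomal protein, went from 0.924 to 7.30 FPKM. *Sohlh2*, a transcription factor of germ cells, was listed at 0 in WT heart and was at 3.44 FPKM in the other heart, and *Hsf2bp*, which acts in meiotic recombination, was at 0.255 and 3.72 FPKM. The other 7 were *Prss36* (7.58 and 39.4 FPKM), *Vipr1*, a receptor for vasoactive intestinal peptide (0.0561 and 2.88 FPKM), *Ccdc73* (0.485 and 4.50 FPKM), *B230307C23Rik*, *Gm28044*, *Gm5483* and *Gm20662*.

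The 12 genes with the largest fall held plasma protein genes of the liver. *Apoa1* and *Apoa2*, which encode the main proteins of high-density lipoprotein, were at 7.08 and 17.3 FPKM in WT heart and at 0.777 and 3.78 FPKM in the heart labelled *Dnmt3a* KO. *Serpina6*, which encodes the corticosteroid-binding globulin of plasma, was at 5.63 and 0.738 FPKM, and *Gfi1b*, a transcription factor of the erythroid and megakaryocyte lineages, at 6.66 and 0.287 FPKM. *Ryr3*, a calcium release channel with 12 annotated transcripts of 137 to 15468 bases, was at 16.2 and 1.55 FPKM, while *Ryr2*, the main release channel of cardiomyocytes, was at 21.2 and 23.2 FPKM. *Zfp618* (18.9 and 2.67 FPKM), *Gpsm2*, which encodes a protein that orients the mitotic spindle (42.4 and 9.77 FPKM), *Zfp236*, *Isoc2b* and *Lims2* completed the group together with *Gm42420* and *Gm28635*. The last is a gene model that overlaps *Ctnnd1*, *Selenoh* and *Tmx2*, at 9.88 FPKM in WT heart and near 0 in the other, so its reads cannot be separated from those genes with certainty.

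Genes of the working myocardium stayed within 2-fold. None of 33 contractile and calcium handling genes passed 2-fold, and their median log2 ratio was -0.01, against 0.0044 over all genes. With 3.98% of all genes and 0.181% of those at 100 FPKM and over past 2-fold, a count of 0 in a list of this size is near the general share, here and for the lists below. The ventricular light chain gene *Myl2* was at 25671 FPKM in WT heart and 25505 FPKM in the heart labelled *Dnmt3a* KO. *Tnnt2*, which encodes cardiac troponin T, was at 4225 and 4334 FPKM, and *Ttn*, which encodes the sarcomere spring titin, at 16 and 20.8 FPKM. The 44 nuclear-encoded genes of oxidative phosphorylation (median 0.03) and the 21 genes of fatty acid uptake and oxidation (median -0.01) had no member past 2-fold either, again near the general share.

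Most atrial and epicardial genes had lower values, beside 49.3% of all 13378 genes. Of 14 atrial genes, 11 were lower in the heart labelled *Dnmt3a* KO, with a median of -0.26, and 1 (7.14%, beside 1.83% of all genes) passed 2-fold: *Nr2f1*, a nuclear receptor of atrial identity, at 11.4 and 4.74 FPKM. The atrial light chain gene *Myl7* was at 4907 and 3930 FPKM and *Myh6*, the atrial myosin heavy chain, at 1250 and 931 FPKM, both within 2-fold. Of 16 epicardial genes, 13 were lower, with a median of -0.19 and none past 2-fold, and *Tbx18*, a transcription factor of the epicardium, was at 13 and 8.42 FPKM. The share of atrium and of outer wall in each dissected heart was not measured, and its part in these values was not tested.

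Lists of other cell types of the heart were near the general share. Endothelial and endocardial genes (25, median -0.03), fibroblast and matrix genes (21, median 0.08), valve and cushion genes (16, median 0.06), smooth muscle and pericyte genes (16, median 0.02) and macrophage and leukocyte genes (17, median 0.03) had no member past 2-fold. *Pecam1*, an adhesion protein of endothelium, was at 67.0 FPKM in WT heart and 60.5 FPKM in the other heart. *Col3a1*, a fibrillar collagen, was at 574 and 614 FPKM, and *Acta2*, smooth muscle actin, at 1176 and 876 FPKM. In all, 27 of the 43 gene lists had no member past 2-fold, and their medians ranged from -0.19 in the epicardium to 0.26 over 8 neuronal and neural crest genes at 1 FPKM or more, which was 0.10 over all 20 genes of that list.

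**Figure D3:**
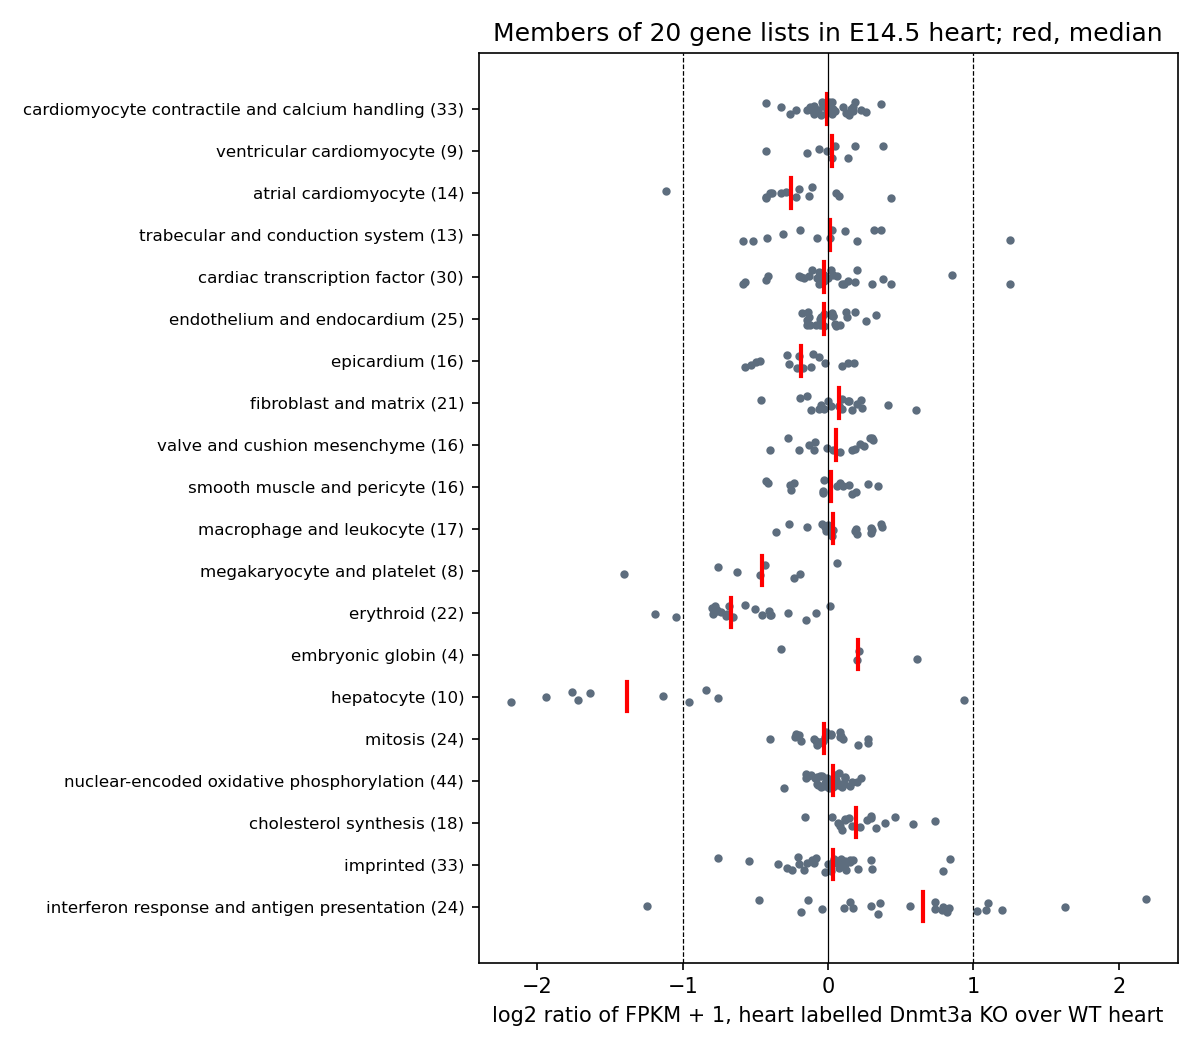
Log2 ratio of FPKM + 1 between the heart labelled *Dnmt3a* KO and WT heart (x axis) for each member of 20 gene lists (grey points, number of members in brackets), with the median in red and dashed lines at 2-fold. The atrial median lies at -0.26 and the fibroblast median at 0.08. Those of the erythroid and hepatocyte lists lie at -0.67 and -1.38 (the latter -0.80 without the 1 FPKM limit), and that of the interferon list lies at 0.65 (0.57 without the limit).

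Among 30 cardiac transcription factors, 1 (3.33%, close to the 3.98% of all genes) passed 2-fold, and the median was -0.03. *Gata4*, which drives early cardiac genes, was at 120 FPKM in WT heart and 114 FPKM in the heart labelled *Dnmt3a* KO, and *Hand2*, a factor of the right ventricle, was at 70.1 and 74.9 FPKM. The one past 2-fold was *Tbx3*, which represses working-myocardium genes in the conduction system. It was at 1.62 FPKM in WT heart and 5.24 FPKM in the other heart, while *Tbx3os1* on the opposite strand was at 2.03 and 0 FPKM. *Hcn4*, a pacemaker channel of the same cells, was at 5.76 and 7.70 FPKM, within 2-fold, while *Isl1*, a factor of the sinus node and of heart progenitors, was at 2.49 and 1.32 FPKM. Over 13 genes of the trabeculae and conduction system the median was 0.01, with *Tbx3* alone past 2-fold. *Prdm16*, a factor of compact myocardium, was at 4.27 and 8.49 FPKM, within 2-fold in FPKM + 1.

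Red cell genes were lower. Of 22 erythroid genes, 21 were lower in the heart labelled *Dnmt3a* KO, the median log2 ratio being -0.67, although 2 (9.09%, beside 1.83% of all genes) passed 2-fold, among them *Ermap*, a protein of the red cell membrane, at 2.41 and 0.496 FPKM. Among all autosomal genes that differed at all between the hearts, 49.5% were higher in the heart labelled *Dnmt3a* KO, against 4.55% of the erythroid genes. *Slc4a1*, the anion exchanger of red cells, was at 50.9 and 28.9 FPKM, and *Klf1*, a factor that drives adult globin genes, at 3.33 and 1.71 FPKM.

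Adult globin genes were lower, and 3 of the 4 embryonic globin genes were higher, all within 2-fold. *Hbb-bs* was at 7184 FPKM in WT heart and 4226 FPKM in the heart labelled *Dnmt3a* KO, and *Hba-a1* at 15171 and 11485 FPKM. *Hbb-y*, which is made by primitive red cells of the yolk sac, was at 23670 and 27151 FPKM, and *Hbb-bh1* at 138 and 212 FPKM. The fourth embryonic gene, *Hbb-bh0*, was at 154 and 123 FPKM. In liver of the same numbered embryos, 15 of the 22 erythroid genes (68.2%, beside 41.2% of all autosomal genes that differed) were higher in the library labelled KO, with a median of 0.18, so the lower values were not seen there. In bulk tissue, fewer cells of a type and less RNA per cell cannot be told apart, and the amount of blood left in each heart was not measured.

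Hepatocyte genes were lower still, at low levels. Of 16 hepatocyte genes, 15 had lower values in the heart labelled *Dnmt3a* KO and 1 a higher value (6.25%, beside 49.5% of all autosomal genes that differed). Of the 16, 6 (37.5%) were at least 2-fold lower, against 0.508% of all 48234 autosomal genes. Among the 10 at 1 FPKM or more, 6 (60%) were, against 1.83% of all 13378 such genes. *Alb*, which encodes serum albumin, was at 12.7 and 3.04 FPKM, *Afp*, which encodes its fetal counterpart alpha-fetoprotein, at 10.1 and 2.57 FPKM, and *Ttr*, which encodes transthyretin, at 2.59 and 0.636 FPKM. These values are small beside liver, where *Alb* was at 7396 and 4323 FPKM. Over all 16 genes, with no filter, the level in WT heart was a median of 0.358% of that in WT liver, and the level in the heart labelled *Dnmt3a* KO was a median of 0.0779% of that in the liver labelled KO. *Trf*, which encodes transferrin, was the exception at 30.1 and 58.5 FPKM. The median log2 ratio over all 16 was -0.80. It was -1.38 over the 10 at 1 FPKM or more, of which 5 passed that limit through WT heart alone. A trace of liver RNA in the WT heart library was not tested.

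Interferon-response and antigen presentation genes were higher. Interferon signalling turns on a common set of antiviral genes. Of 25 autosomal genes of this set, 20 (80%, beside 49.5% of all autosomal genes that differed) had higher values in the heart labelled *Dnmt3a* KO. Of the 25, 6 (24%) were at least 2-fold higher, against 0.595% of all autosomal genes. Among those at 1 FPKM or more, 6 of 24 (25%) were, against 2.15% of all 13378 such genes. The members at 1 FPKM or more had a median log2 ratio of 0.65, and all 25 without that limit had 0.57. *Isg15*, a ubiquitin-like protein with 1 annotated transcript, was at 3.90 and 14.1 FPKM, a ratio of 3.63 with a 95% confidence interval of 2.54 to 5.37 that covers counting error only. *Ifitm3*, a membrane protein that blocks virus entry, also with 1 transcript, was at 21 and 49.5 FPKM, a ratio of 2.35 with an interval of 1.97 to 2.82.

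*Irf9*, a transcription factor of the interferon pathway, differed by less than 2-fold, at 5.07 FPKM in WT heart and 9.83 FPKM in the heart labelled *Dnmt3a* KO. *Rtp4* (3.52 and 8.70 FPKM), *Xaf1* (3.76 and 8.66 FPKM) and *Ifi44* (0.677 and 2.56 FPKM) completed the 6 with *Oasl2*. *Psmb9*, a subunit of the immunoproteasome, went the other way, at 2.05 and 0.282 FPKM, and the class I gene *H2-K1* was at 10.2 and 9.22 FPKM. The same embryos' livers moved in the same direction. There 21 of the 25 genes (84%, beside 41.2% of all autosomal genes that differed) were higher in the library labelled KO. Of the 25, 12 passed 2-fold against 0.363% of all autosomal genes, with *Isg15* at 6.32 and 73.7 FPKM. In MEFs with DMSO, from other samples, 17 of the 25 were lower in the library labelled KO and 8 (32%, beside 56.9% of all that differed) higher. With GSK126, 22 were lower and 3 (12%, beside 49.1%) higher.

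Germline genes were mostly higher, and apart from *Mov10l1* they were at low levels in both hearts. Of 32 autosomal germline genes, 22 were higher in the heart labelled *Dnmt3a* KO, 4 were lower and 6 were listed at 0 in both hearts. The 22 were 84.6% of those that differed, beside 49.5% of all autosomal genes that differed. Of the 32, 4 or 12.5% passed 2-fold upwards, against 0.595% of all autosomal genes and 2.15% of the 13378 at 1 FPKM or more. All 4 reached 1 FPKM only in the heart labelled *Dnmt3a* KO. The list was chosen with earlier results of these data known, so these shares are a description and not a test. *Sohlh2* is described above, with 0 reads estimated in WT heart and 114 in the other. *Slc25a31*, an ADP/ATP carrier of sperm, was at 0.246 and 2.39 FPKM, a ratio of 9.69 with a counting interval of 4.76 to 21.8. That interval does not allow for the choice of the gene by its values. *Fkbp6*, which acts in the piRNA pathway, was at 0.102 and 1.49 FPKM, and *Stk31*, a kinase of the male germline, at 0.0502 and 1.39 FPKM.

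No germline gene of the list passed 2-fold downwards. The 4 lower ones included *Mov10l1*, an RNA helicase of the piRNA pathway that was at 102 and 80.8 FPKM in these hearts and at or near 0 in the livers. Below the 2-fold limit, *Ddx4*, the germ cell marker also called *Vasa*, was at 0.226 and 1.29 FPKM and *Mael*, which silences transposons, at 0 and 0.482 FPKM. In liver of the same numbered embryos 21 of the 32 were higher in the library labelled KO and 4 were lower (84% of those that differed, beside 41.2% of all autosomal genes), with *Stk31* at 0 and 1.14 FPKM and *Fkbp6* at 0 and 0.848 FPKM. In MEFs with DMSO 12 were higher and 8 lower (60%), a share near the 56.9% of all autosomal genes, with *Fkbp6* at 0 and 0.415 FPKM.

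The promoters of these 4 genes are shown because promoter CpGs are where DNA methylation bears on germline genes. Each covers 250 bases before to 50 after the first RefSeq start listed (GRCm38.p6) and is written 5′ to 3′ on the strand of the gene. Capitals mark matches to the E-box CACGTG, which reads the same on both strands, or to the E2F-type motif GCGGGA or its complement TCCCGC. The positions are chr3:55181794-55182093 on the plus strand for *Sohlh2*, chr3:40708621-40708920 on the plus strand for *Slc25a31*, chr6:49395289-49395588 on the plus strand for *Stk31* and chr5:135349995-135350294 on the minus strand for *Fkbp6*.
Sohlh2: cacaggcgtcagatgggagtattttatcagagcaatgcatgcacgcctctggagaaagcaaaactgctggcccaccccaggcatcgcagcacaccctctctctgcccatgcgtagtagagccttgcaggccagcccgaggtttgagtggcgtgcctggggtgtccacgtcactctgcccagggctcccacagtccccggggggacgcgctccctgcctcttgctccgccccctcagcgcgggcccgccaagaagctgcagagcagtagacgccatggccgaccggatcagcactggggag
Slc25a31: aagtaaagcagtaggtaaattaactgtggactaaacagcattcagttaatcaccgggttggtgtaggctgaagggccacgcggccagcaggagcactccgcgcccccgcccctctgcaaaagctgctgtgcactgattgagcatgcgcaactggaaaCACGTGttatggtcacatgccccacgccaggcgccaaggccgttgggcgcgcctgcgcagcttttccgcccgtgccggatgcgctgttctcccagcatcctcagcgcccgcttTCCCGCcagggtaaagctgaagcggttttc
Stk31: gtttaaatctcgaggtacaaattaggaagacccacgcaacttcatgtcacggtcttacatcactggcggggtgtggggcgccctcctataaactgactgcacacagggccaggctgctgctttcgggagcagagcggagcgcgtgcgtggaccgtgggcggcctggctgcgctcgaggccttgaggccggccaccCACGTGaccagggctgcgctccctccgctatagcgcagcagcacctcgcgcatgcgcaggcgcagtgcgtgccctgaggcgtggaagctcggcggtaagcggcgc
Fkbp6: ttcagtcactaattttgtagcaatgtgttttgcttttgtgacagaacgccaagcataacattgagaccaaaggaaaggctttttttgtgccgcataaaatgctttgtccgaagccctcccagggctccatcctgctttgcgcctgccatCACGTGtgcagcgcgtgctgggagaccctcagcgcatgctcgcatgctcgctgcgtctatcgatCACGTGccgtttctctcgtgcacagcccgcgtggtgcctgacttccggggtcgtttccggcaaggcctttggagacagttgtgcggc

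These promoters held 17 CpGs in *Sohlh2*, 22 in *Slc25a31*, 29 in *Stk31* and 21 in *Fkbp6*, beside a median of 7 over 25748 autosomal promoters of the same length and a median of 21 over the 9667 promoters of genes measured in heart, so that their CpG number was like that of genes expressed in heart. An E-box was found in *Slc25a31* (1), *Stk31* (1) and *Fkbp6* (2) and not in *Sohlh2*, and the E2F-type motif in *Slc25a31* alone. Of all autosomal promoters, 7.23% held the E-box and 20.3% the E2F-type motif. Of the promoters of genes measured in heart, 10.3% held the E-box and 36.6% the E2F-type motif. Of the 28 germline genes of the list with a promoter in the table, 46.4% held each. A match describes the letters of this window and is not evidence of binding.

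**Figure D4:**
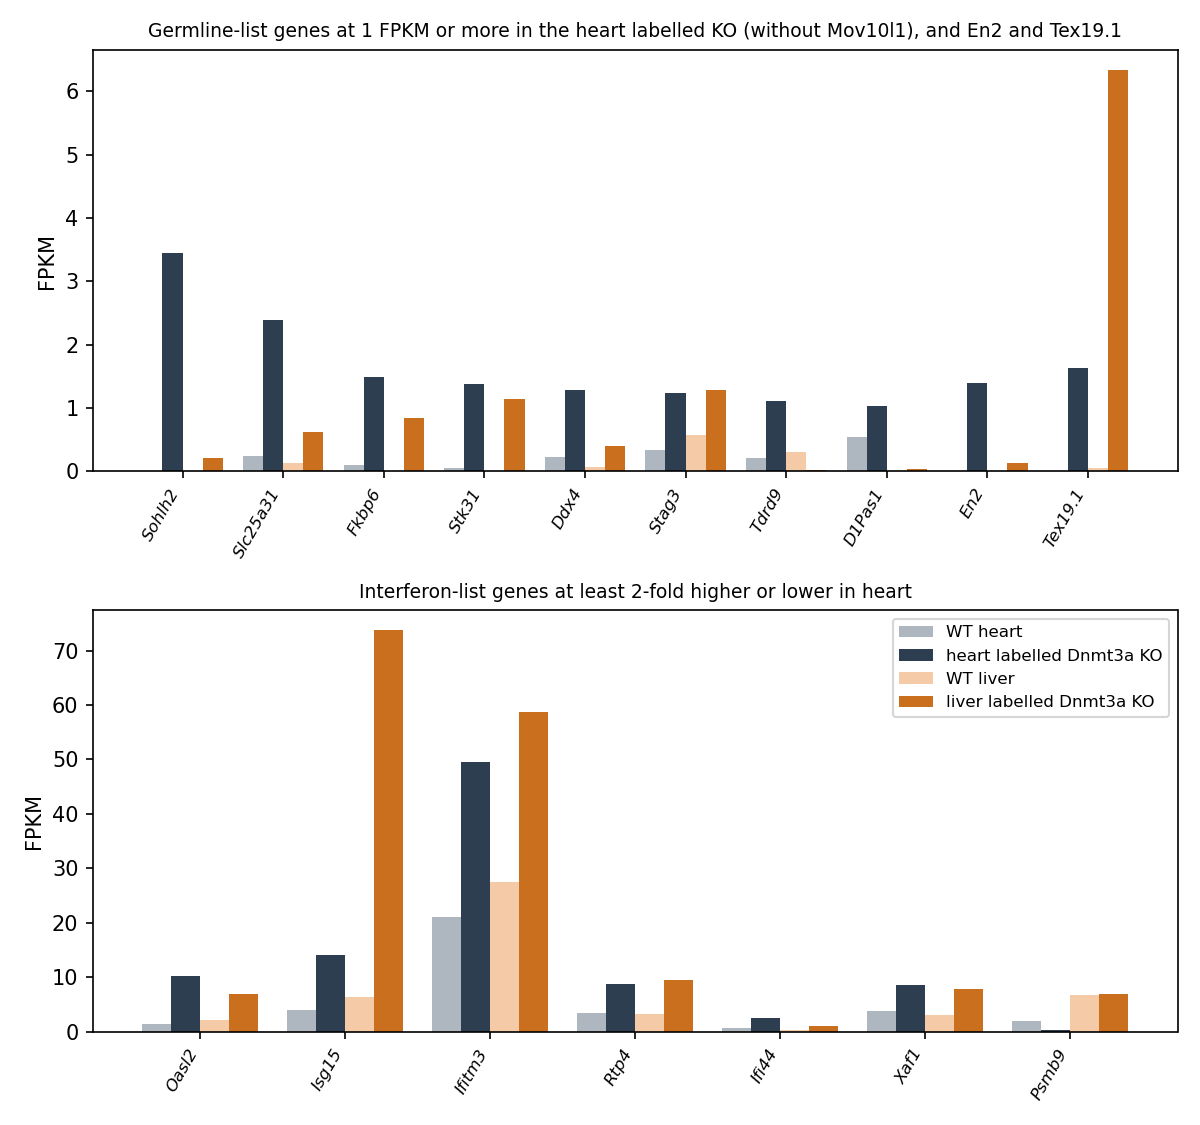
FPKM (y axis) in WT heart, the heart labelled *Dnmt3a* KO, WT liver and the liver labelled *Dnmt3a* KO, 1 library each. The upper panel shows germline-list genes at 1 FPKM or more in the heart labelled KO together with *En2* and *Tex19.1*, and without *Mov10l1*, so that the higher bars of that heart follow from how the genes were chosen; the lower panel shows the interferon-list genes past 2-fold in heart, of which *Psmb9* alone was lower.

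A further pair of genes listed at 0 in WT heart were chosen after their values were seen. *En2*, a homeobox gene of the midbrain and hindbrain with 1 annotated transcript, was at 1.40 FPKM in the heart labelled *Dnmt3a* KO, an estimated 71 reads. It was listed at 0 in WT liver and at 0.140 FPKM in the liver labelled KO. *Tex19.1*, a germline gene outside the list, was at 0 and 1.64 FPKM in the hearts and at 0.0494 and 6.34 FPKM in the livers.

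Of 19 genes that write, copy and read DNA methylation, *Dnmt3a* alone passed 2-fold (5.26%, beside 3.98% of all genes), and their median log2 ratio was 0.00 to 2 decimals. *Dnmt3b*, the other de novo enzyme, was at 1.22 FPKM in both hearts, and *Dnmt1*, which copies methylation at replication, was at 37.3 and 32.1 FPKM. *Tet1*, which oxidizes methylated cytosine, was at 4.60 and 2.76 FPKM and *Tet2*, an enzyme of the same kind, at 0.631 and 1.91 FPKM, both within 2-fold in FPKM + 1. None of 29 genes of the Polycomb complexes PRC1 and PRC2 (median -0.03) and none of 33 imprinted genes (median 0.03) passed 2-fold, counts near the 3.98% of all genes, with *H19* at 5489 and 5643 FPKM and *Igf2* at 3379 and 3158 FPKM.

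The lists of genes that the study assigned to each enzyme in 2i-MEFs, which are embryonic fibroblasts from chimeras made with hypomethylated ES cells, were also followed. Of 223 DNMT3A target genes at 1 FPKM or more in heart, 3 were higher and 3 lower (1.35% each, beside 2.15% and 1.83% of all genes), with a median of -0.03. The higher ones were *Tbx3*, *Adam32* and *Ddc*, which encodes the decarboxylase of dopamine synthesis and was at 104 and 228 FPKM. The lower ones were *Nr2f1*, *Tbx3os1* and *Hotairm1*, a long noncoding RNA at 10.8 and 3.82 FPKM. Of 126 DNMT3B target genes, 3 were higher (*Slc25a31*, *Scn8a* and *Tmem151a*) and 3 lower, 2.38% each and close to the shares of all genes, with a median of 0.03. The study chose these lists on methylation in 2i-MEFs, not on these hearts.

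Under the same labels, and over the 11919 protein-coding genes of the heart set, 0.436% were at least 2-fold higher and 1.22% lower in liver, and 2.27% higher and 0.948% lower in MEFs with DMSO.

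Medians of the 19 autosomes ranged from -0.01 to 0.02. The share of genes past 2-fold ranged from 2.24% on chromosome 10 to 6.36% on chromosome 12, which carries *Dnmt3a* and where 20 of 519 genes (3.85%) were lower and 13 (2.5%) higher. Within 5 Mb of *Dnmt3a* on chromosome 12, 29 genes were measured, with a median of -0.11. None was at least 2-fold higher and 2 (6.9%, beside 1.83% of all genes) were lower, *Fam228b* (5.44 and 2.2 FPKM) and *Gm3625*, whose transcripts are under 500 bases (51.4 and 0 FPKM). Within 10 Mb, 3 of 42 genes (7.14%) were lower and none higher, again with a median of -0.11.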

How the data were processed

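RNA was sequenced from whole E14.5 hearts, 1 library per group, with a stranded mRNA kit. The authors used cutadapt for trimming and TopHat2 with Bowtie2 and a GENCODE annotation for alignment to mm10, kept uniquely mapped reads and calculated FPKM with Cufflinks (2.2.1 in the submitters' processing notes). The authors deposited these FPKM values as 1 table of 52609 rows, without counts or further scaling. Rows of the same symbol were summed (155 repeats), and comparisons used log2(FPKM + 1), which understates the change of low genes. GENCODE M21 gave gene types and transcript lengths.

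Depth was estimated from genes with 1 transcript of at least 1500 bases, whose low values are multiples of 1 read, a method tested on simulated data. Intervals are exact (Clopper-Pearson), cover counting error only, and were given for genes with 1 annotated transcript. They do not allow for the choice of genes by their values.

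With 1 library per group there is no replicate check and no test. The named genes are *Dnmt3a*, the 12 largest rises and falls among protein-coding genes with a transcript of at least 500 bases, and, for each of 43 lists, genes from its 2 highest and 2 largest changes; other list genes were added for their role. The genes and lists were chosen with earlier results of these data known. Alternatives were a pseudocount of 0.1, centring, scaling without globin genes, other filters and other thresholds. DNA methylation samples were not analysed here, and some genes of the lists are not reported here by name. Python 3.11.15, numpy 2.4.6 and pandas 2.3.3 were used.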

Additional observations from a re-analysis of the deposited data

Results flagged for a closer look

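Of the protein-coding genes at least 2-fold different in heart, 8 were at least 2-fold different the opposite way in liver under the same labels, all 8 among the 136 higher in heart (5.88%, beside 1.22% of all such genes lower in liver). In MEFs with DMSO, 3 of the 136 (2.21%, beside 0.948%) and 9 of the 108 lower in heart (8.33%, beside 2.27%) were opposite. More of the 136 went the same way, 14 (10.3%) in liver and 14 in MEFs, beside 0.436% and 2.27% of all. Of the 108, 1 (0.926%) in liver and 6 (5.56%) in MEFs went the same way, beside 1.22% and 0.948%. Those named by the rule for named genes are listed here, each from 1 library per group, and the difference was not tested. *Dnmt3a* had a log2 ratio of 1.17 in heart and -1.99 in liver of the same numbered embryos. In MEFs with DMSO, *Dnmt3a* was among the genes that went the same way as in heart. In the comparison with MEFs with DMSO, *Isg15* was 1.63 in heart and -1.33 in MEFs. *Vipr1* was 1.88 in heart and -2.13 in MEFs, with 4.10 FPKM in WT MEFs and 0.169 FPKM under the KO label. *Zfp618* was -2.44 in heart and 2.19 in MEFs. *Cnmd*, which encodes the cartilage protein chondromodulin, was -1.23 in heart and 1.70 in MEFs. *Gm28635*, the gene model overlapping *Ctnnd1*, was -3.44 in heart and 2.52 in MEFs.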

How the results depend on the processing

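No paired analysis was possible because each group has 1 library, and for the same reason no replicate could be left out. The counts of genes past 2-fold (532 in all, 287 higher and 245 lower) depend on the settings. They were 1061 (575 and 486) with a pseudocount of 0.1, 206 (113 and 93) among genes at 5 FPKM or more, 244 (136 and 108) in the protein-coding set, 1536 (813 and 723) at 1.5-fold and 82 (41 and 41) at 4-fold. Added after seeing the data, genes with 1 annotated transcript gave 242 (130 and 112) and those with several gave 288 (156 and 132). Centring and scaling moved the counts by at most 1 gene. Medians near 0 have no firm direction: those of the smooth muscle (0.02, down to -0.03), skeletal muscle (-0.13, up to 0.02), p53 target (-0.06, up to 0.01) and DNA methylation machinery lists (0.00, up to 0.04) crossed 0 under at least 1 alternative. With a pseudocount of 0.1 the medians were -0.79 for erythroid, -1.98 for hepatocyte and 2.09 for germline genes. The germline median of 0.90 over the 9 genes at 1 FPKM or more is tied to that filter: it was 0.21 without a filter and -0.33 at 5 FPKM, where *Mov10l1* alone is left. The hepatocyte median of -1.38 was -0.80 without a filter. The epithelial median of 0.66 over 3 genes became 0 without a filter. Low values limit all of this, since the share past 2-fold was highest under 2 FPKM.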

Other observations

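Some genes of neutrophil granules were chosen after *Ltf* was seen. *S100a9* was at 2.2 FPKM in WT heart and 9.38 FPKM in the heart labelled *Dnmt3a* KO, *S100a8* at 0.370 and 5.0 FPKM, and both encode the calcium-binding calprotectin of neutrophils. *Camp*, which encodes cathelicidin, was at 0.0947 and 1.86 FPKM, *Ngp* at 0.516 and 2.35 FPKM and *Lcn2*, which encodes lipocalin-2, at 0.295 and 2.27 FPKM. Of genes of the primary granules, *Mpo*, which encodes myeloperoxidase, was at 2.16 and 0.205 FPKM and *Prtn3*, which encodes proteinase 3, at 2.58 and 1.24 FPKM, while *Ctsg*, which encodes cathepsin G, was at 0.132 and 0.324 FPKM and *Elane*, which encodes neutrophil elastase, at 0.0673 and 0 FPKM. All stand on few reads, with an estimated 1 and 16 for *Camp*.

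Of 18 cholesterol synthesis genes, 17 were higher, beside 50.7% of all genes, with a median log2 ratio of 0.19 and none past 2-fold. *Stard4*, a cholesterol transporter, was at 5.96 and 10.6 FPKM. Of 8 megakaryocyte and platelet genes, 7 were lower, beside 49.3% of all genes. Of the 8, 1 (12.5%, beside 1.83% of all genes) passed 2-fold, *Treml1*, a receptor of platelet granules, at 5.85 and 1.59 FPKM. Of 25 genes of glycolysis and the hypoxia response, 2 (8%, beside 1.83% of all genes) were at least 2-fold lower and the median was -0.01. These were *Ankrd37* (9.35 and 3.51 FPKM) and *Car9* (3.90 and 1.22 FPKM), both known targets of hypoxia-inducible factor.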
